A study of Mus musculus with 39 samples.

Results

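C2C12 mouse myoblasts in which Flnc had been knocked out (KO) were compared with wild-type (WT) C2C12 cells after 2 days of differentiation, in 7 of the 39 RNA-seq libraries of the study. The libraries were chosen by their labels: 3 KO libraries (replicates 1, 3 and 5) and 4 WT libraries (replicates 1, 3, 4 and 5). C2C12 is an established line of mouse muscle precursor cells that stops dividing and forms multinucleate myotubes when serum is withdrawn. Both lines grew in medium with 10% fetal bovine serum, and were moved to 2% horse serum, changed every day, to start differentiation. The KO line was made with CRISPR/Cas9 and a guide RNA to the first exon of Flnc. Whether the KO line is 1 clone, and whether the replicates are separate cultures, is not given in the sources used here. The comparison is therefore between a KO line and a WT line, and any other difference between the lines is part of it. The p-values measure only the spread between libraries, which the main fit estimates within the 10 groups of all 39 libraries. The other libraries cover growing cells and days 1, 4 and 6, and enter the same fit.

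Filamin C is a muscle-enriched actin crosslinking protein that sits at the Z-disc and at cell attachment sites. At day 2 of C2C12 differentiation, MyoD has switched on myogenin, the membrane proteins myomaker and myomixer drive fusion, and the first embryonic contractile proteins are made. Id proteins bind the partners of MyoD and keep it from its DNA sites, and signals of the BMP family switch Id genes on.

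Levels are given as CPM, counts per 1000000 counts of the library after scaling by the trimmed mean of M-values (TMM), in the order WT replicates 1, 3, 4 and 5 and KO replicates 1, 3 and 5. CPM are not divided by transcript length, so levels of different genes are not compared. Differences are KO minus WT on the log2 scale, as fitted by edgeR. The ± is the standard error (SE) over libraries of the difference in mean log2 CPM. That is a separate estimate, which can lie apart from the fitted one where 1 library stands out, as in the ER genes below. The ± there is a spread of libraries, not the error of the fitted value. Adjusted p is from edgeR's quasi-likelihood test with Benjamini-Hochberg adjustment over 13780 genes. "Rose" and "fell" are used for an adjusted p below 0.05.

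The targeted gene came first as a check of the labels. Flnc (chr6:29433256-29461883 on the plus strand of GRCm38, the build of all gene positions here) stood at 1715, 843, 1542 and 789 CPM in the WT libraries and 73.8, 90.5 and 77.5 CPM in the KO libraries. Every KO library lay far below every WT library, and the mean KO level was 6.60% of the WT level (log2 difference -3.92 ± 0.30, edgeR adjusted p = 3.09e-08). Flna, the widely expressed filamin A, stood at 2787, 3232, 2678 and 1380.5 CPM in the WT libraries and 2360.1, 2659.6 and 1628 CPM in the KO libraries. Its groups overlapped, and its log2 difference of -0.19 ± 0.35 did not pass the threshold (edgeR adjusted p = 0.819).

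At day 2, 2467 of the 13780 genes tested differed between the lines (17.9%). In KO 1053 genes rose (7.64%) and 1414 fell (10.3%), and 1851 of the 2467 differed by more than 2-fold. The counts of each gene list below are to be read beside these shares. The median log2 difference was -0.04 over all genes tested and 1.68 in size over the genes called. The 7 libraries held 15919936 to 26552348 counts, and the share of mitochondrial counts was 2.25% to 3.20% in WT and 2.78% to 3.79% in KO. The largest component of variation, 59.2% of the variance, separated the lines, and the next (14.9%) set WT replicate 4 at 69.9 against -42.5 to 11.8 for the other 6 libraries. WT replicate 4 also correlated least with its own group (mean r over genes 0.957 on log2 CPM, 0.964 to 0.970 for the other WT libraries, 0.974 to 0.979 within KO). Without it, 934 genes rose (6.79% of 13755) and 1323 fell (9.62%), and 1997 genes were called both ways. Without KO replicate 5 the counts were 637 and 871.

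**Figure D1:**
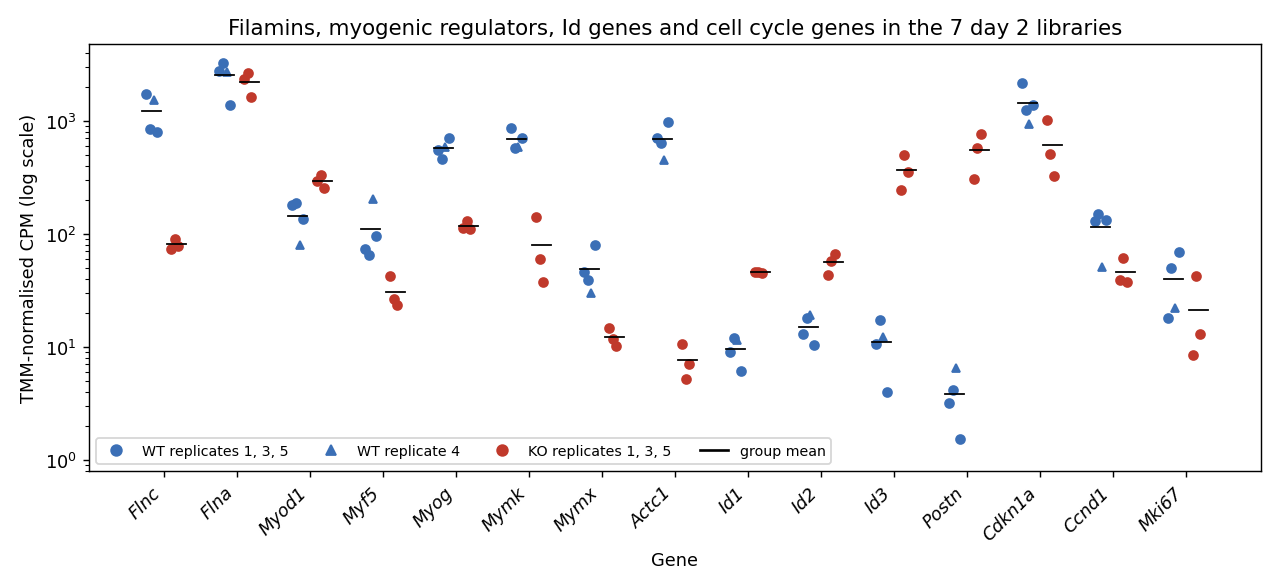
TMM-normalised CPM (log scale) of 15 genes in each of the 7 day 2 libraries, WT in blue with replicate 4 as a triangle, KO in red, and group means as black lines. Flnc, Myog, Mymk, Mymx and Actc1 lie below the WT range in each of the 3 KO libraries, and Myod1, Id1, Id2, Id3 and Postn lie above it.

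The transcription factors of muscle differentiation did not move as 1 group. Of 20 tested, 4 rose and 7 fell, with a median log2 difference of -0.26. Myod1 (chr7:46376474-46379099), the factor that commits cells to muscle, stood at 179.9, 186, 79.6 and 135 CPM in the WT libraries and 292, 333 and 255 CPM in the KO libraries. All 3 KO libraries were above all 4 WT libraries, and WT replicate 4 was the lowest of the 7 (log2 difference 1.02 ± 0.30, edgeR adjusted p = 0.00183). Without WT replicate 4 the Myod1 difference was 0.81 (adjusted p = 0.01), and the test against 1.5-fold did not call it (adjusted p = 0.0875). Myf5, its close relative in precursor cells, stood at 73.8, 65.2, 205 and 96.7 CPM in the WT libraries and 42.8, 26.4 and 23.5 CPM in the KO libraries. It was lower in every KO library (log2 difference -1.83 ± 0.45, edgeR adjusted p = 0.00248), and WT replicate 4 held the highest level. Without that library the difference was -1.35 (adjusted p = 0.0219). Myog (chr1:134289989-134292548) encodes myogenin, which drives terminal differentiation, and stood at 548, 456, 589 and 706 CPM in the WT libraries and 113, 129 and 111 CPM in the KO libraries. The groups lay far apart, with little spread within KO (log2 difference -2.29 ± 0.15, edgeR adjusted p = 0.00997). Without KO replicate 5 the Myog call was lost at an adjusted p of 0.0508, with the difference at -2.26.

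Further down the same programme, Mef2c, a partner of myogenin at muscle genes, stood at 41.0, 27.5, 21.3 and 86.7 CPM in the WT libraries and 2.79, 3.68 and 5.89 CPM in the KO libraries, lower in every KO library (log2 difference -3.43 ± 0.54, edgeR adjusted p = 4.78e-05). Rbm24, an RNA-binding protein that sets muscle splicing, was at 60.5 ± 22.4 CPM in WT and 4.47 ± 1.39 CPM in KO (log2 difference -3.76 ± 0.39, edgeR adjusted p = 3.54e-05). Smyd1, a methyltransferase and myosin chaperone partner of muscle, was at 98.8 ± 44.5 CPM in WT and 19.8 ± 5.41 CPM in KO (log2 difference -2.32 ± 0.38, edgeR adjusted p = 0.000212). All 3 were called lower while Myod1 was called higher in the same libraries. Other factors that rose were Eya4, a transcriptional cofactor (log2 difference 1.57, edgeR adjusted p = 0.00755), and Tcf12, a DNA-binding partner of MyoD (log2 difference 0.85, edgeR adjusted p = 0.0135; not called without KO replicate 5 at adjusted p = 0.0626). Here and below, the libraries named after "not called without" were each left out singly. Without KO replicate 5 the counts for the list were 2 higher and 4 lower.

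Genes of the contractile apparatus were lower as a group. Of 23 thick filament genes tested, 12 fell and the other 11 did not pass the threshold, with a median of -2.25 against -0.04 over all genes. Of 20 thin filament genes, 12 fell and the other 8 did not pass, with a median of -1.69. KO libraries lay below every WT library for 13 of the 23 thick filament and 12 of the 20 thin filament genes, where 14.0% of all genes tested did. In bulk RNA, fewer cells of a type and less RNA per cell cannot be told apart. Without KO replicates 3 or 5, 7 or 6 thin filament genes were called lower.

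The promoters of 3 of these genes are shown because their genes fell and each holds the E-box form bound by myogenic factors. Each line is the 250 bases upstream of the most upstream RefSeq start (GRCm38.p6), read 5′ to 3′ on the gene's own strand, with the CAGCTG in capitals. The first is Mylpf at chr7:127211358-127211607, then Tnni1 at chr1:135799171-135799420 and Tnnt2 at chr1:135836084-135836333, all on the plus strand.
Mylpf: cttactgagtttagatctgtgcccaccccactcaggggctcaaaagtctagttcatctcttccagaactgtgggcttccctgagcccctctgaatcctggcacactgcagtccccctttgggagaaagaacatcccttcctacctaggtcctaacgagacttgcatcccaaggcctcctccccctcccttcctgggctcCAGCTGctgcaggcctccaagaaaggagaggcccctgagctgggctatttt
Tnni1: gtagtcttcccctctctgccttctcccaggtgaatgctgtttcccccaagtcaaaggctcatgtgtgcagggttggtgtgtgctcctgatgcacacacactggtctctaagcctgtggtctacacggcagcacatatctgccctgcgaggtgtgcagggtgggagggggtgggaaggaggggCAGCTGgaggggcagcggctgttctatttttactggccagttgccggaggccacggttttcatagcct
Tnnt2: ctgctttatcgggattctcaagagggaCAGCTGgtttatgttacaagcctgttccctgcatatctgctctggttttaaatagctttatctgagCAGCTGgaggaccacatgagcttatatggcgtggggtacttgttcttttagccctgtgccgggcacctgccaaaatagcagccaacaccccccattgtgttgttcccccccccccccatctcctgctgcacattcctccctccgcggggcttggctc
Counting back from the start, with -1 the base before it, the match lay at -51 to -46 in Mylpf, at -68 to -63 in Tnni1, and at -223 to -218 and -157 to -152 in Tnnt2. CAGCTG reads the same on both strands, so each match counts once. Of the 37 promoters in RefSeq's table that belong to the thick and thin filament lists, 14 held it (37.8%), and 9 of the 21 that belong to members called lower did (42.9%). Among all 27025 promoters of the same length the share was 12.7%, and among the 10509 of genes tested it was 12.1%. A match is a description of the letters, not a measured binding site.

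Mylpf, the fast skeletal regulatory myosin light chain, stood at 2393, 2480.2, 1316 and 2953 CPM in the WT libraries and 435, 220.1 and 141 CPM in the KO libraries. The lowest WT library, replicate 4, was still above the highest KO library (log2 difference -3.11 ± 0.54, edgeR adjusted p = 0.000909). Tnni1, the slow skeletal troponin I, stood at 523, 421, 466 and 757 CPM in the WT libraries and 51.7, 38.3 and 33.4 CPM in the KO libraries. Tnnt2, the cardiac troponin T that embryonic skeletal muscle also makes, stood at 638, 466, 451 and 803 CPM in the WT libraries and 82.2, 69.0 and 68.7 CPM in the KO libraries. Neither troponin gene overlapped between the lines (Tnni1: log2 difference -3.72 ± 0.26, edgeR adjusted p = 0.000376). For Tnnt2 the log2 difference was -3.01 ± 0.21 (edgeR adjusted p = 0.000153).

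Actc1, cardiac alpha-actin and the main sarcomeric actin of early myotubes, stood at 698, 633, 449 and 970.0 CPM in the WT libraries and 10.7, 5.17 and 6.99 CPM in the KO libraries. Its mean was 90.2-fold lower in KO, the largest fall of the genes named from these lists (log2 difference -6.49 ± 0.38, edgeR adjusted p = 2.32e-06). Its reads can be shared with the other muscle actins, whose coding sequences are close to identical, and how such reads were counted is not given in the sources used here. Tnnc1, the slow and cardiac troponin C, was at 848 ± 104 CPM in WT and 78.4 ± 38.2 CPM in KO (log2 difference -3.43 ± 0.41, edgeR adjusted p = 0.0004). Myom2, an M-band protein of the sarcomere centre, stood at 536, 291, 543 and 524 CPM in the WT libraries and 76.5, 35.3 and 29.1 CPM in the KO libraries (log2 difference -3.33 ± 0.48, edgeR adjusted p = 4.79e-05). Trim54, a ubiquitin ligase of the sarcomere, fell by less and was at 35.9 ± 8.85 CPM in WT and 13.8 ± 3.91 CPM in KO (log2 difference -1.38 ± 0.30, edgeR adjusted p = 0.000911).

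The Z-disc list holds filamin C's own binding partners. Of 26 tested, 12 fell, Flnc among them, and the other 14 did not pass, with a median of -1.01. Xirp2, a Xin repeat protein that binds filamin C, stood at 16.9, 43.7, 20.2 and 53.8 CPM in the WT libraries and 0, 0 and 0.123 CPM in the KO libraries, with 2960 counts over the 4 WT libraries and 2 over the 3 KO libraries. Myoz2, a calsarcin that links calcineurin to the Z-disc, stood at 16.0, 16.4, 15.6 and 47.7 CPM in the WT libraries and 0.762, 0.701 and 0.368 CPM in the KO libraries. WT replicate 5 carried the highest Myoz2 level, and all KO libraries were below 1 CPM (log2 difference -5.24 ± 0.48, edgeR adjusted p = 9.33e-06). Ankrd1, a stretch-responsive ankyrin repeat protein, stood at 1103, 897, 742 and 1089.9 CPM in the WT libraries and 228, 273 and 184 CPM in the KO libraries, with tight groups (log2 difference -2.07 ± 0.21, edgeR adjusted p = 1.03e-06).

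Of the genes of myoblast fusion, both fusogens fell. Of 24 tested, 10 fell, 1 rose and the other 13 did not pass, with a median of -0.47. Mymk (chr2:27061636-27072179), myomaker, stood at 872, 574, 584 and 710.0 CPM in the WT libraries and 142, 59.8 and 37.3 CPM in the KO libraries. Its mean was 8.6-fold lower in KO, and KO replicate 1 was the highest of the 3 KO libraries (log2 difference -3.10 ± 0.58, edgeR adjusted p = 0.000144). Mymx, myomixer, stood at 45.6, 39.0, 30.3 and 79.5 CPM in the WT libraries and 14.7, 11.8 and 10.2 CPM in the KO libraries. All KO libraries lay below all WT libraries (log2 difference -1.98 ± 0.33, edgeR adjusted p = 0.0118), and the call was lost without KO replicate 3 (adjusted p = 0.0516) or KO replicate 5 (adjusted p = 0.0648).

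Itga7, the laminin receptor subunit of muscle, was at 1919 ± 520.3 CPM in WT and 711 ± 114 CPM in KO (log2 difference -1.43 ± 0.23, edgeR adjusted p = 0.000346). Tmem182, a membrane protein of muscle that restrains fusion, was at 74.7 ± 40.1 CPM in WT and 27.3 ± 3.58 CPM in KO (log2 difference -1.45 ± 0.38, edgeR adjusted p = 0.0138), and its call was lost without KO replicates 3 or 5 or WT replicate 5 (adjusted p 0.0584 to 0.0927). Without KO replicates 3 or 5, 5 or 3 fusion genes were called lower. The 1 gene that rose was the chemokine Cxcl12 (log2 difference 1.98, edgeR adjusted p = 0.0258), and it was not called without KO replicate 5 or WT replicates 4 or 5 or with a replicate block at adjusted p 0.0704 to 0.29.

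Genes of excitation-contraction coupling and the endplate were split. Of 30 tested, 7 fell and 6 rose, with a median of -0.72. Casq2, a calcium store protein of the sarcoplasmic reticulum, stood at 379.9, 182, 192 and 508 CPM in the WT libraries and 18.9, 9.95 and 11.0 CPM in the KO libraries. No library overlapped (log2 difference -4.57 ± 0.46, edgeR adjusted p = 0.000153). Dok7, the adaptor that activates the endplate kinase MuSK, stood at 37.2, 41.4, 41.2 and 31.8 CPM in the WT libraries and 2.37, 2.89 and 2.45 CPM in the KO libraries, among the tightest groups of the list (log2 difference -3.88 ± 0.12, edgeR adjusted p = 2.94e-07). Cacnb1, the beta subunit of the muscle calcium channel, was at 98.6 ± 22.0 CPM in WT and 26.6 ± 10.9 CPM in KO (log2 difference -1.89 ± 0.37, edgeR adjusted p = 8.51e-05). Agrn, agrin, the ligand that starts the same pathway as Dok7, moved the other way and stood at 29.3, 23.9, 30.1 and 17.3 CPM in the WT libraries and 63.3, 74.8 and 70.5 CPM in the KO libraries (log2 difference 1.47 ± 0.20, edgeR adjusted p = 0.000391). The 6 higher calls became 3 without WT replicate 3, without WT replicate 4 or with a replicate block, and 2 without KO replicate 5.

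Among 23 genes of muscle fuel use, 6 fell and 2 rose (median -0.56), where 10.3% of all genes fell and 7.64% rose. The higher count became 1 without KO replicate 1 or WT replicate 3. Ppargc1a, the coactivator PGC-1alpha of mitochondrial genes, stood at 8.09, 6.82, 16.1 and 6.50 CPM in the WT libraries and 0, 0 and 0 CPM in the KO libraries. With 0 of its counts in the 3 KO libraries, against 825 in WT, it was at least 196-fold lower, taking a floor of 3 counts over the KO group. Fabp3, a muscle fatty acid carrier, was at 12.1 ± 4.18 CPM in WT and 2.81 ± 1.38 CPM in KO (log2 difference -2.10 ± 0.51, edgeR adjusted p = 0.000173). Cox8b, a muscle isoform of a respiratory chain subunit, was at 8.06 ± 3.12 CPM in WT and 1.32 ± 0.268 CPM in KO (log2 difference -2.61 ± 0.36, edgeR adjusted p = 0.00175). Lpl, lipoprotein lipase, stood at 60.7, 132, 271 and 149 CPM in the WT libraries and 599, 996 and 1532 CPM in the KO libraries, with each KO library above each WT library (log2 difference 2.77 ± 0.59, edgeR adjusted p = 6.52e-05). Acsl1, which activates fatty acids, was the other gene that rose (log2 difference 0.72, edgeR adjusted p = 0.0219; not called without KO replicate 1 or WT replicate 3 at adjusted p 0.0646 to 0.157).

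The dystrophin complex, which links the cytoskeleton to the matrix, did not fall as a group: of 20 members tested, 3 rose and 2 fell (median 0.18). The lower count is near the 10.3% of all genes that fell, and 7.64% of all genes rose. Cav3, the muscle caveolin, stood at 12.2, 6.25, 3.81 and 9.97 CPM in the WT libraries and 0.508, 0.701 and 0.491 CPM in the KO libraries (log2 difference -3.80 ± 0.39, edgeR adjusted p = 0.0013). Sntb1, a syntrophin adaptor, was at 33.7 ± 14.3 CPM in WT and 5.30 ± 5.07 CPM in KO (log2 difference -2.68 ± 1.20, edgeR adjusted p = 0.00963). Its KO libraries spread widely, at 0.593, 4.65 and 10.7 CPM, and the call was lost without KO replicate 1 (adjusted p = 0.0541) or 3 (adjusted p = 0.0504). Sspn, sarcospan, rose and was at 73.3 ± 22.5 CPM in WT and 155 ± 46.8 CPM in KO (log2 difference 1.08 ± 0.34, edgeR adjusted p = 0.00502), a call lost without KO replicate 5 (adjusted p = 0.0753). Dtnb, beta-dystrobrevin, rose with tight groups, at 4.32, 4.19, 4.38 and 3.58 CPM in the WT libraries and 9.31, 9.29 and 9.57 CPM in the KO libraries (log2 difference 1.19 ± 0.07, edgeR adjusted p = 0.00235). Sgca, alpha-sarcoglycan, rose with overlapping groups (log2 difference 0.94, edgeR adjusted p = 0.0345), and was not called without KO replicates 1 or 3 or WT replicates 4 or 5 or with a replicate block at adjusted p 0.0958 to 0.172.

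**Figure D2:**
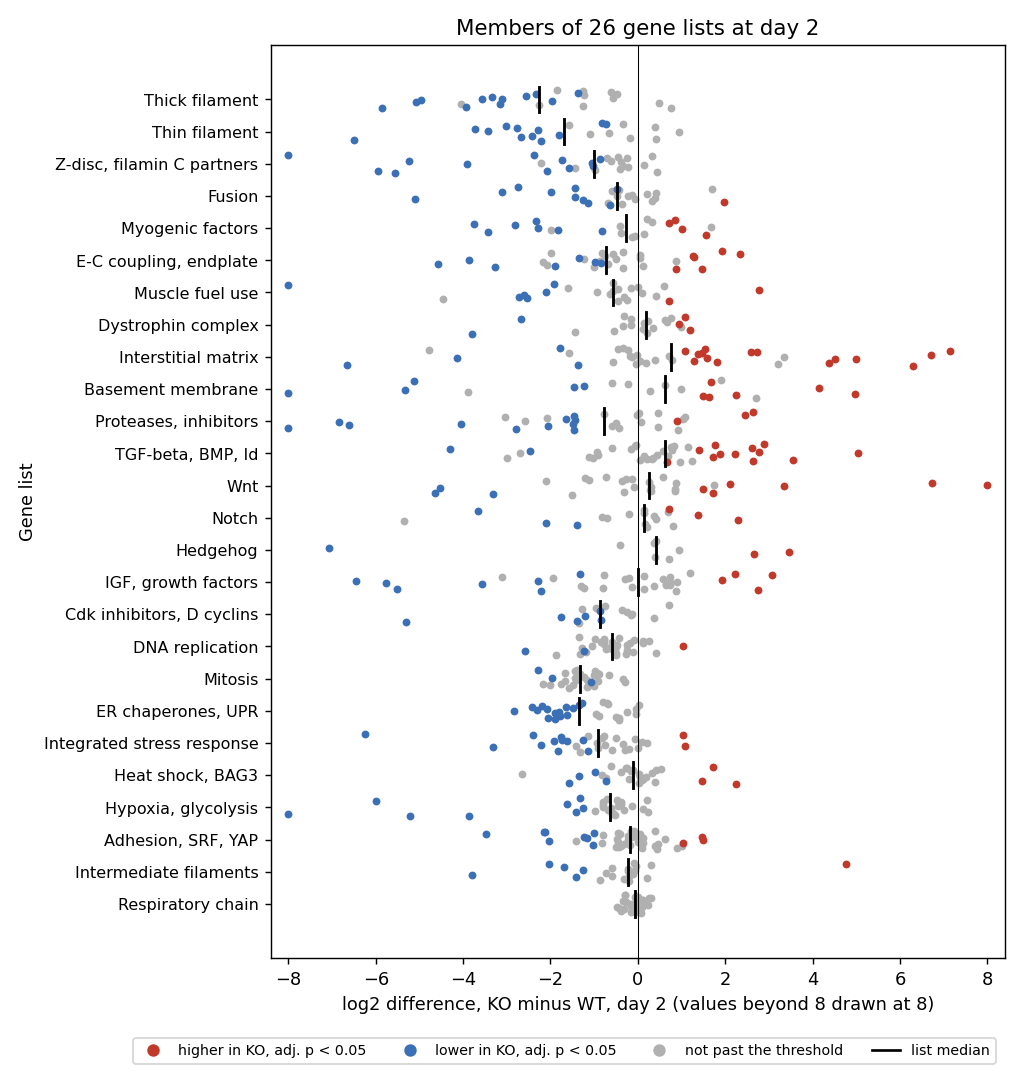
Log2 difference of each tested member of 26 gene lists (KO minus WT), one point a gene, red for higher and blue for lower at adjusted p below 0.05, grey for the rest, with the list median as a black bar and values beyond 8 drawn at 8. The contractile and Z-disc lists lie to the left (medians -2.25, -1.69 and -1.01), the interstitial matrix list has 15 red points, and the respiratory chain sits around -0.06.

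Interstitial matrix genes moved in the other direction. Of 36 tested, 15 rose and 4 fell, with a median of 0.75, where 7.64% of all genes rose. Postn (chr3:54361109-54391037), periostin, a matrix protein of connective tissue, stood at 3.17, 4.19, 6.48 and 1.52 CPM in the WT libraries and 308, 571 and 764 CPM in the KO libraries. Its mean was 142-fold higher in KO, and no WT library exceeded 6.48 CPM (log2 difference 7.15 ± 0.57, edgeR adjusted p = 2.51e-07). Aspn, asporin, a small leucine-rich proteoglycan, stood at 2.14, 2.59, 0.381 and 1.84 CPM in the WT libraries and 47.6, 174 and 194 CPM in the KO libraries. KO replicate 1 was the lowest of the KO libraries for both (log2 difference 6.30 ± 0.86, edgeR adjusted p = 4.7e-07).

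The chains of collagen VI, which surrounds muscle fibres, rose together. Col6a1 stood at 18.7, 15.7, 22.6 and 13.3 CPM in the WT libraries and 274, 421 and 515 CPM in the KO libraries (log2 difference 4.52 ± 0.31, edgeR adjusted p = 3.31e-05). Col6a2 stood at 5.65, 3.20, 4.10 and 3.63 CPM in the WT libraries and 77.4, 159 and 164 CPM in the KO libraries (log2 difference 5.00 ± 0.39, edgeR adjusted p = 4.39e-06). Both genes were lowest in KO replicate 1 within the KO group and showed no overlap. Bgn, biglycan, a proteoglycan related to asporin, went against the list and stood at 438, 438, 789 and 184 CPM in the WT libraries and 2.37, 5.61 and 5.76 CPM in the KO libraries. Its mean was 101-fold lower in KO (log2 difference -6.66 ± 0.60, edgeR adjusted p = 7.43e-06). Dcn, decorin, the closest relative of biglycan, fell as well (log2 difference -4.15, edgeR adjusted p = 0.00613), as did Tnc, tenascin C (log2 difference -1.79, edgeR adjusted p = 0.0188; not called without KO replicate 5 at adjusted p = 0.134), and Ccn1, a matricellular protein (log2 difference -1.37, edgeR adjusted p = 0.00473).

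The basement membrane list, the sheet under muscle fibres, was split: of 19 tested, 6 rose and 5 fell (median 0.62). Npnt, nephronectin, an integrin ligand, stood at 679, 328, 269.9 and 763 CPM in the WT libraries and 22.2, 13.7 and 7.91 CPM in the KO libraries. Its mean was 34.8-fold lower in KO (log2 difference -5.12 ± 0.57, edgeR adjusted p = 1.07e-08). Lama4, a laminin alpha chain, stood at 0.257, 1.83, 10.4 and 1.41 CPM in the WT libraries and 69.3, 42.0 and 73.6 CPM in the KO libraries. WT replicate 4 was the highest WT library, and without it the difference was 5.72 in place of 4.15 ± 1.03 (adjusted p = 3.14e-06 and 0.000112).

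Col4a5, a collagen IV chain, was at 24.5 ± 10.3 CPM in WT and 117 ± 57.4 CPM in KO (log2 difference 2.25 ± 0.57, edgeR adjusted p = 0.00106). Col4a6, its neighbour chain, stood at 0.171, 0.152, 0.0953 and 0.65 CPM in the WT libraries and 0.127, 7.98 and 16.9 CPM in the KO libraries, so that KO replicate 1 lay within the WT range and KO replicates 3 and 5 carried the difference (log2 difference 4.97 ± 1.95, edgeR adjusted p = 0.00102). Besides Npnt, the genes that fell were the laminin chains Lama5, Lamb1 and Lama1 and the matrix protein Fras1. Fras1 had 0 counts in KO. Lamb1 was called without any 1 library (log2 difference -1.24, edgeR adjusted p = 0.00358). Lama5 went from -1.46 (edgeR adjusted p = 0.0142) to -0.88 without WT replicate 4 (adjusted p = 0.129) and was not called without KO replicates 3 or 5 or WT replicate 4 or with a replicate block at adjusted p 0.0769 to 0.129. Lama1, at 1.53 CPM in the WT mean, went from an adjusted p of 0.0435 to 0.54 without WT replicate 4, and was not called without KO replicates 1, 3 or 5 or WT replicate 4 or with a replicate block at adjusted p 0.0784 to 0.585. The 5 lower calls became 3 without KO replicate 3, KO replicate 5 or WT replicate 4, and with a replicate block.

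Among 29 proteases and inhibitors, 11 fell and 3 rose (median -0.78), and 7 fell without KO replicate 3. Over all genes tested, 10.3% fell and 7.64% rose. Plau, the urokinase plasminogen activator, stood at 296, 341, 82.4 and 314 CPM in the WT libraries and 113, 94.8 and 72.6 CPM in the KO libraries. WT replicate 4 lay inside the KO range, the other WT libraries well above it (log2 difference -1.47 ± 0.52, edgeR adjusted p = 0.00208). Serpine2, an inhibitor of the plasminogen activators, moved the opposite way and stood at 48.5, 43.3, 97.9 and 27.0 CPM in the WT libraries and 182, 261 and 443 CPM in the KO libraries (log2 difference 2.45 ± 0.53, edgeR adjusted p = 0.000107). Adam8, a membrane metalloprotease, was at 6.07 ± 3.18 CPM in WT and 0.869 ± 0.704 CPM in KO (log2 difference -2.80 ± 0.88, edgeR adjusted p = 0.00184). Adamtsl1, a secreted ADAMTS-like protein, was at 8.48 ± 5.80 CPM in WT and 0.508 ± 0.0177 CPM in KO (log2 difference -4.04 ± 0.56, edgeR adjusted p = 0.000144). Mmp14, a membrane-bound collagenase (log2 difference 0.90, edgeR adjusted p = 0.0134; not called without KO replicate 1 at adjusted p = 0.0674), and the protease inhibitor Timp4, at a KO mean of 1.83 CPM, were the other genes that rose. Timp4 was at the edge of the threshold (edgeR adjusted p = 0.0498) and was not called without KO replicates 3 or 5 or WT replicates 1, 3 or 4 or with a replicate block at adjusted p 0.0927 to 0.324.

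In the list of TGF-beta and BMP genes with their Id targets, more genes rose than fell. Of 38 tested, 12 rose, 2 fell and the other 24 did not pass, with a median of 0.62, where 7.64% of all genes rose and 10.3% fell. Bmp4, a ligand, stood at 4.58, 3.73, 4.96 and 1.90 CPM in the WT libraries and 33.7, 43.1 and 56.7 CPM in the KO libraries. Every KO library was above every WT library (log2 difference 3.55 ± 0.37, edgeR adjusted p = 1.73e-07). Both genes that fell are secreted: Nog, noggin, which binds and blocks BMPs (log2 difference -4.30, edgeR adjusted p = 9.1e-05), and Ltbp2, a microfibril protein (log2 difference -2.47, edgeR adjusted p = 0.00129). Id1, Id2 and Id3, which this pathway switches on in many cell types, rose. Id1 stood at 8.99, 12.0, 11.6 and 6.07 CPM in the WT libraries and 45.7, 46.3 and 44.8 CPM in the KO libraries (log2 difference 2.23 ± 0.22, edgeR adjusted p = 6.29e-06). Id2 stood at 13.1, 18.0, 19.0 and 10.4 CPM in the WT libraries and 43.7, 58.0 and 66.7 CPM in the KO libraries (log2 difference 1.89 ± 0.27, edgeR adjusted p = 1.3e-05). Id3 stood at 10.5, 17.4, 12.3 and 4.01 CPM in the WT libraries and 246, 496 and 351 CPM in the KO libraries, with its mean 32.8-fold higher in KO (log2 difference 5.04 ± 0.53, edgeR adjusted p = 8.6e-08). The KO libraries were close to each other for Id1 and wider apart for Id3, and none of the 3 genes overlapped between lines.

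Of 28 Wnt pathway genes, 6 rose and 3 fell (median 0.26), where 7.64% of all genes rose and 10.3% fell. Without KO replicate 1, 5 fell. Rspo2, an R-spondin that raises Wnt receptor levels, stood at 0, 0.152, 0.191 and 0 CPM in the WT libraries and 69.8, 34.9 and 44.9 CPM in the KO libraries, near 0 in WT and clearly detected in every KO library (edgeR adjusted p = 3.41e-07). Sfrp2, a secreted Wnt binding protein, stood at 2.74, 1.75, 0.191 and 1.41 CPM in the WT libraries and 103, 184 and 205 CPM in the KO libraries. Its mean was 106-fold higher in KO (log2 difference 6.73 ± 0.78, edgeR adjusted p = 1.53e-09). Fzd1, a Wnt receptor, was at 28.5 ± 9.35 CPM in WT and 93.1 ± 12.1 CPM in KO (log2 difference 1.71 ± 0.26, edgeR adjusted p = 3.53e-05). Lgr6, an R-spondin receptor, fell and was at 6.12 ± 1.99 CPM in WT and 0.265 ± 0.154 CPM in KO (log2 difference -4.53 ± 0.47, edgeR adjusted p = 0.000664), so a ligand and a receptor of the same pair moved in opposite directions. The Dickkopf genes Dkk2 (log2 difference -3.32, edgeR adjusted p = 0.0059) and Dkk3 (log2 difference -4.64, edgeR adjusted p = 0.00239) also fell.

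Notch genes gave 3 higher and 3 lower calls among 18 tested (median 0.15), where 7.64% of all genes rose and 10.3% fell. The target genes Hey1 and Hes1 were lower, Hey1 at 33.9 ± 23.1 CPM in WT and 7.81 ± 2.51 CPM in KO (log2 difference -2.11 ± 0.52, edgeR adjusted p = 0.00102). Hes1 was at 25.0 ± 8.36 CPM in WT and 9.52 ± 3.04 CPM in KO (log2 difference -1.39 ± 0.39, edgeR adjusted p = 0.00359). Heyl, another target of the same family, was higher and stood at 32.7, 18.1, 5.29 and 60.5 CPM in the WT libraries and 64.7, 214 and 148 CPM in the KO libraries. Its KO replicate 1 was just above WT replicate 5 (log2 difference 2.29 ± 0.90, edgeR adjusted p = 0.00729), and the call was lost without KO replicate 3 (adjusted p = 0.0581). Maml2, a coactivator of Notch, was at 6.67 ± 3.45 CPM in WT and 17.4 ± 1.77 CPM in KO (log2 difference 1.38 ± 0.42, edgeR adjusted p = 0.041), a call lost without any 1 of KO replicates 1, 3 and 5 and WT replicates 3 and 5 (adjusted p 0.0744 to 0.132). Nrarp, a feedback inhibitor of Notch, fell (log2 difference -3.65, edgeR adjusted p = 0.00411), and Rfng, a glycosyltransferase that modifies Notch, rose (log2 difference 0.71, edgeR adjusted p = 0.0483) but was not called without any 1 of the 7 libraries or with a replicate block (adjusted p 0.0529 to 0.176). The 3 higher calls became 1 without KO replicates 1 or 5 or WT replicates 3 or 5, and none was left without KO replicate 3.

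In the hedgehog list, 2 of 9 genes rose and 1 fell (median 0.42), and 4 rose with a replicate block. Hhip, an antagonist of hedgehog ligands that the pathway itself switches on, stood at 8.52, 8.80, 10.6 and 9.43 CPM in the WT libraries and 0.169, 0 and 0 CPM in the KO libraries, even across WT and almost absent from KO (edgeR adjusted p = 5.15e-06). Gas1, a hedgehog co-receptor, stood at 53.0, 49.3, 37.2 and 44.1 CPM in the WT libraries and 234, 306 and 334 CPM in the KO libraries (log2 difference 2.67 ± 0.19, edgeR adjusted p = 5.81e-06). Gli1, the usual readout of the pathway, rose but stayed below 1 CPM in the KO mean (edgeR adjusted p = 0.00662). Among 32 genes of insulin-like growth factors and other growth factors, 4 rose and 7 fell (median -0.01), where 7.64% of all genes rose and 10.3% fell. The lower count became 4 without KO replicate 1 or WT replicate 4, and 3 without KO replicates 3 or 5 and with a replicate block.

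Igfbp5, the binding protein that myoblasts induce in differentiation, stood at 4489, 2536, 3059.6 and 3211 CPM in the WT libraries and 8925, 10233 and 18720.0 CPM in the KO libraries. All KO libraries were above all WT libraries, with KO replicate 5 the highest (log2 difference 1.93 ± 0.37, edgeR adjusted p = 0.000548). Igfbp3, another member, was nearly absent from KO and stood at 8.30, 9.22, 6.39 and 10.6 CPM in the WT libraries and 0.254, 0 and 0 CPM in the KO libraries (edgeR adjusted p = 3.52e-06). Pdgfra, a growth factor receptor that marks connective tissue cells, stood at 6.46, 3.47, 3.81 and 6.45 CPM in the WT libraries and 25.8, 39.1 and 61.8 CPM in the KO libraries (log2 difference 3.06 ± 0.43, edgeR adjusted p = 2.61e-06). Fgf7, a growth factor made by such cells, was at 1.70 ± 0.493 CPM in WT and 11.4 ± 5.17 CPM in KO (log2 difference 2.74 ± 0.46, edgeR adjusted p = 1.86e-05). Pdgfrb, the related receptor, also rose (log2 difference 2.22, edgeR adjusted p = 0.0108).

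Cell cycle genes varied between replicates of the same line. Of 32 mitotic genes tested, all 32 had a log2 difference below 0 (median -1.33). Only 3 fell by the test, near the 10.3% of all genes that fell. The summed level of the 32 genes was 485, 1483, 555 and 1504 CPM in WT and 269, 750.5 and 264 CPM in KO. WT replicates 3 and 5 and KO replicate 3 were the high ones, so the groups overlapped. Without KO replicate 3, 10 of the list were called lower, without KO replicates 1 or 5 it was 1, with a replicate block 5 and with DESeq2 6. Mki67, the proliferation marker Ki-67, stood at 18.0, 49.5, 21.9 and 69.1 CPM in the WT libraries and 8.47, 42.2 and 13.0 CPM in the KO libraries, overlapping and not past the threshold (log2 difference -0.90 ± 0.83, edgeR adjusted p = 0.574).

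Ect2, a regulator of cytokinesis, was at 34.0 ± 17.6 CPM in WT and 8.63 ± 5.23 CPM in KO (log2 difference -1.97 ± 0.63, edgeR adjusted p = 0.00367). Its groups overlapped, with WT replicate 1 at 14.3 CPM and KO replicate 3 at 14.6 CPM. Cdc25b, a phosphatase that starts mitosis, was at 102 ± 32.3 CPM in WT and 48.4 ± 9.86 CPM in KO (log2 difference -1.08 ± 0.29, edgeR adjusted p = 0.0156), a call lost without KO replicates 1 or 5 or WT replicate 3 (adjusted p 0.0577 to 0.0796). Ube2c, a ubiquitin-conjugating enzyme of the anaphase-promoting complex, was at 32.5 ± 14.7 CPM in WT and 6.58 ± 4.15 CPM in KO (log2 difference -2.29 ± 0.66, edgeR adjusted p = 0.016), lost without KO replicate 1 (adjusted p = 0.0567) or 5 (adjusted p = 0.105). Of 34 replication genes, 2 fell and 1 rose (median -0.59, 29 of 34 below 0), where 10.3% of all genes fell and 7.64% rose. The factors of the E2F family that fell were E2f2, at 70.9, 79.3, 53.2 and 121 CPM in the WT libraries and 12.4, 16.9 and 11.2 CPM in the KO libraries (log2 difference -2.58 ± 0.30, edgeR adjusted p = 0.000334), and E2f1. E2f1 was at 25.7 ± 6.26 CPM in WT and 11.0 ± 1.21 CPM in KO (log2 difference -1.23 ± 0.21, edgeR adjusted p = 0.00177). Mcm4, a subunit of the replicative helicase, was the gene that rose (log2 difference 1.02 ± 0.41, edgeR adjusted p = 0.0435), and was no longer called without any 1 of KO replicates 3 and 5 and WT replicates 1 and 4 (adjusted p 0.108 to 0.185) or with a replicate block (adjusted p = 0.131). The lower count was 4 without KO replicate 3, without WT replicate 4 and with a replicate block.

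Among 16 cyclin-dependent kinase (Cdk) inhibitors, Cdks and D cyclins, 6 fell and the other 10 did not pass (median -0.86). Cdkn1a, the inhibitor p21 that myoblasts induce as they leave the cycle, stood at 2144, 1250.4, 941 and 1382 CPM in the WT libraries and 1017, 506 and 323 CPM in the KO libraries. KO replicate 1 lay within the WT range and replicates 3 and 5 below it (log2 difference -1.22 ± 0.54, edgeR adjusted p = 0.0109). The call was lost without KO replicate 3 (adjusted p = 0.0697), KO replicate 5 (adjusted p = 0.111) or WT replicate 1 (adjusted p = 0.0554). Ccnd2, cyclin D2, stood at 140.1, 96.8, 207 and 89.7 CPM in the WT libraries and 3.47, 2.98 and 3.68 CPM in the KO libraries, with its mean 39.5-fold lower in KO (log2 difference -5.30 ± 0.29, edgeR adjusted p = 2.65e-08).

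Ccnd3, the D cyclin that rises in differentiating muscle, stood at 479.7, 471, 193 and 529 CPM in the WT libraries and 178, 185 and 111 CPM in the KO libraries. WT replicate 4 was close to the highest KO library (log2 difference -1.40 ± 0.41, edgeR adjusted p = 0.0014). Ccnd1, cyclin D1, stood at 130.0, 150.4, 50.5 and 131 CPM in the WT libraries and 38.9, 60.6 and 37.3 CPM in the KO libraries, and WT replicate 4 lay within the KO range (log2 difference -1.34 ± 0.43, edgeR adjusted p = 0.0713). Without WT replicate 4 the Ccnd1 difference was -1.59 and passed (adjusted p = 0.0373), as it did with a replicate block (adjusted p = 0.0399). Cdk6 was at 133 ± 20.4 CPM in WT and 39.4 ± 13.3 CPM in KO (log2 difference -1.76 ± 0.29, edgeR adjusted p = 0.00219). Cdk2 was at 63.9 ± 11.1 CPM in WT and 35.5 ± 1.63 CPM in KO (log2 difference -0.85 ± 0.12, edgeR adjusted p = 0.00511).

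Chaperones of the endoplasmic reticulum (ER) were lower in KO, and most of these calls rested on WT replicate 4. Of 27 genes of ER chaperones and the unfolded protein response, 15 fell with all 7 libraries (median -1.34) and 3 fell without WT replicate 4 (median -0.20). Their summed level was 7410.3, 7455, 46125 and 7970.2 CPM in the WT libraries and 6500.2, 6174 and 6495 CPM in the KO libraries. WT replicate 4 stood far above every other library, and the other 3 WT libraries were above the KO libraries by less. The 3 were Hspa5, Herpud1 and Pdia6, a disulfide isomerase. When only the day 2 libraries were fitted, the edgeR test called 0 of the list (lowest adjusted p 0.0876), 13 members had an unadjusted p below 0.05, and DESeq2 on all libraries called 12. With a replicate block, which in effect leaves out the unpaired WT replicate 4, Hspa5 and Herpud1 fell.

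The promoters of Hspa5 and Calr are shown because both hold the ER stress element, the site of the factors ATF6 and XBP1 in the unfolded protein response, and because their levels set WT replicate 4 apart. The sequences are the 250 bases upstream of the RefSeq start (GRCm38.p6), on the gene's own strand, Hspa5 from chr2:34771840-34772089 on the plus strand and Calr from chr8:84846932-84847181 on the minus strand. Capitals mark the match to CCAAT and CCACG with 9 bases of any kind between them, which in Calr is on the opposite strand.
Hspa5: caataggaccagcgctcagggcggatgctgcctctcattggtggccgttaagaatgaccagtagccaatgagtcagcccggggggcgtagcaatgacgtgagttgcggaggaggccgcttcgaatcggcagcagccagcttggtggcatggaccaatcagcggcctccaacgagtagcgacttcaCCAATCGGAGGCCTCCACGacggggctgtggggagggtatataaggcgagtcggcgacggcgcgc
Calr: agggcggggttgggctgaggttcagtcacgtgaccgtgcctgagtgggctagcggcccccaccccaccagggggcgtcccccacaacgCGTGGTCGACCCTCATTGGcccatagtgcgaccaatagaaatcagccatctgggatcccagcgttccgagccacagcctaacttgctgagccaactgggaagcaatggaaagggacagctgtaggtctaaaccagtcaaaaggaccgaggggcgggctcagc
The match lay at -65 to -47 in Hspa5 and at -162 to -144 in Calr. Among the 23 promoters of the list that RefSeq's table holds, 8 carried the element on either strand (34.8%). Of the members called lower with all libraries, 7 of 13 did (53.9%). The share was 33 of all 27025 promoters (0.122%) and 17 of the 10509 of genes tested (0.162%). Only 3 of the 15 lower calls of the list remained without WT replicate 4. The share among called members therefore mostly describes genes high in that library.

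Hspa5, the ER chaperone BiP, stood at 844, 885, 11863 and 1009 CPM in the WT libraries and 672, 404 and 452 CPM in the KO libraries. WT replicate 4 was far above the other WT libraries, and the KO libraries were below all of them (log2 difference -2.84 ± 0.95, edgeR adjusted p = 0.000659). Without WT replicate 4 the Hspa5 difference was -0.84 (adjusted p = 0.0441), and when only the 7 day 2 libraries were fitted it was -2.83 and not called (adjusted p = 0.0931). Calr, the chaperone calreticulin, stood at 941, 1051, 6554 and 878 CPM in the WT libraries and 585, 734 and 588 CPM in the KO libraries. Its difference went from -1.89 ± 0.71 (edgeR adjusted p = 0.0015) to -0.59 (adjusted p = 0.0619) without WT replicate 4, and was not called with a replicate block (adjusted p = 0.0661).

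Pdia4, a disulfide isomerase, stood at 142, 142, 2056 and 157 CPM in the WT libraries and 108, 116 and 125 CPM in the KO libraries. Here the call rested on WT replicate 4: the difference was -2.42 ± 0.95 with it (edgeR adjusted p = 0.00147) and -0.34 without it (adjusted p = 0.218), and the block gave an adjusted p of 0.237. Herpud1, a component of ER-associated degradation, stood at 189.6, 149.6, 879 and 142 CPM in the WT libraries and 115, 76.5 and 84.5 CPM in the KO libraries. It remained lower without WT replicate 4, at -0.80 (adjusted p = 0.00612) against -1.89 ± 0.65 with it (adjusted p = 0.000465), and like Hspa5 it was not called when only the day 2 libraries were fitted (adjusted p = 0.0876).

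**Figure D3:**
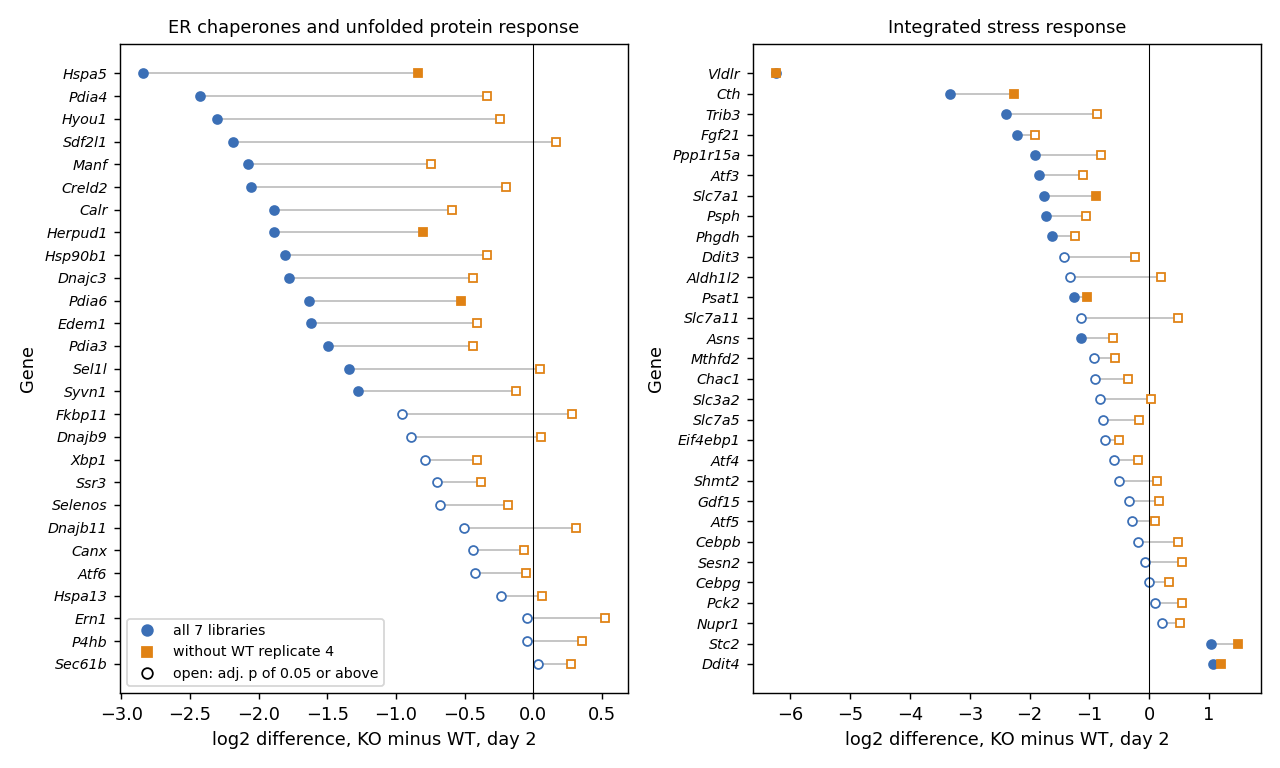
Log2 difference (KO minus WT) of each tested gene of the ER chaperone list (left) and of the integrated stress response list (right), as blue circles with all 7 libraries and as orange squares without WT replicate 4, filled where adjusted p is below 0.05. Without WT replicate 4 most squares move towards 0, and the list medians go from -1.34 to -0.20 and from -0.92 to -0.21.

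The integrated stress response, the ATF4 programme of amino acid supply and translation control, showed the same dependence. Of 30 genes tested, 11 fell and 2 rose with all libraries, and 4 fell and 2 rose without WT replicate 4. The 4 were Cth, Slc7a1, Vldlr and Psat1, an enzyme of serine synthesis, and the 2 that rose both ways were Ddit4, an inhibitor of mTOR (log2 difference 1.08, edgeR adjusted p = 0.0115; not called without WT replicate 5 at adjusted p = 0.0538), and Stc2, a secreted stress protein (log2 difference 1.03, edgeR adjusted p = 0.0407; not called without KO replicates 1, 3 or 5 or WT replicates 1, 3 or 5 at adjusted p 0.0531 to 0.245). The lower count was also 4 with a replicate block and 6 without KO replicates 3 or 5, and the 2 higher calls became 1 or none in leaving out any 1 library other than WT replicate 4. The list summed to 4078, 4044, 10148 and 2268 CPM in WT and 3299, 2743 and 2674 CPM in KO. WT replicate 5 was the lowest of all 7 and WT replicate 4 the highest.

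Ddit3, the stress factor CHOP, stood at 51.8, 68.4, 293 and 22.9 CPM in the WT libraries and 58.9, 33.1 and 30.0 CPM in the KO libraries. The groups overlapped (log2 difference -1.42 ± 0.82, edgeR adjusted p = 0.0828). Without WT replicate 4 the Ddit3 difference was -0.23 (adjusted p = 0.815), and without WT replicate 5 it was called lower (adjusted p = 0.0256). Ppp1r15a, the phosphatase subunit that ends the response, was no longer called without WT replicate 4, at -0.81 (adjusted p = 0.1) against -1.92 ± 0.79 with it (adjusted p = 0.00304), nor with a replicate block (adjusted p = 0.0732).

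Other members kept their call without that library. Cth, an enzyme of cysteine synthesis, stood at 16.1, 16.9, 67.3 and 4.34 CPM in the WT libraries and 3.22, 2.02 and 2.58 CPM in the KO libraries. Its difference was -3.33 ± 0.82 with all libraries (adjusted p = 0.00302), -2.26 without WT replicate 4 (adjusted p = 0.0313), and missed the threshold with a replicate block (adjusted p = 0.0598). Slc7a1, a carrier of cationic amino acids, was at -1.76 ± 0.60 (adjusted p = 0.00204) and -0.89 (adjusted p = 0.0476), and was not called with the day 2 libraries alone (adjusted p = 0.0764). Vldlr, a lipoprotein receptor that is also an ATF4 target, was near 0 in KO and stood at 23.5, 4.27, 9.82 and 1.73 CPM in the WT libraries and 0.169, 0.175 and 0 CPM in the KO libraries (log2 difference -6.24 ± 0.91, edgeR adjusted p = 0.00108).

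Cytosolic heat shock genes and the BAG3 pathway, which clears damaged filamin C, gave 3 higher and 4 lower calls among 27 (median -0.11). The shares over all genes were 7.64% higher and 10.3% lower. Cryab, the small heat shock protein alphaB-crystallin, stood at 778, 722, 246 and 471 CPM in the WT libraries and 242, 199 and 119 CPM in the KO libraries. WT replicate 4 was just above KO replicate 1 (log2 difference -1.57 ± 0.49, edgeR adjusted p = 0.000232). Hspb8, which works with BAG3, was at 129 ± 27.3 CPM in WT and 64.9 ± 29.3 CPM in KO (log2 difference -0.99 ± 0.38, edgeR adjusted p = 0.00177), with KO replicate 1 inside the WT range. Dnajb1, a co-chaperone of Hsp70, was at 80.2 ± 10.7 CPM in WT and 48.1 ± 5.37 CPM in KO (log2 difference -0.74 ± 0.13, edgeR adjusted p = 0.00764). Asb2, the ubiquitin ligase subunit that targets filamins for degradation, rose and stood at 14.4, 11.7, 5.96 and 6.94 CPM in the WT libraries and 62.9, 49.4 and 27.8 CPM in the KO libraries (log2 difference 2.26 ± 0.46, edgeR adjusted p = 0.000623). Hspb1, another small heat shock protein, fell (log2 difference -1.35, edgeR adjusted p = 0.00893; not called without KO replicate 5 at adjusted p = 0.0765), and Fbxo32, the ubiquitin ligase atrogin-1 of muscle (log2 difference 1.46, edgeR adjusted p = 0.00881), and Tgm2, a transglutaminase (log2 difference 1.73, edgeR adjusted p = 0.0266; not called without KO replicate 1 or WT replicates 3 or 4 or with a replicate block at adjusted p 0.0647 to 0.575), rose. The lower calls without WT replicate 4 were 6.

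Of 28 genes of glycolysis and the hypoxia response, 8 fell and the other 20 did not pass (median -0.64). Slc16a3, a lactate exporter, stood at 35.8, 29.4, 16.1 and 13.7 CPM in the WT libraries and 0.847, 0.175 and 0 CPM in the KO libraries (log2 difference -6.00 ± 0.97, edgeR adjusted p = 7.78e-06). Car9, a carbonic anhydrase induced by low oxygen, had 512 counts in WT and 0 in KO, at least 118-fold lower with the floor of 3 counts over the group. Aldoc, an aldolase isoform, was at 9.70 ± 4.19 CPM in WT and 0.257 ± 0.22 CPM in KO (log2 difference -5.21 ± 0.68, edgeR adjusted p = 4.01e-05). Pfkp, a phosphofructokinase isoform, stood at 262, 259.7, 167 and 254 CPM in the WT libraries and 101, 73.1 and 55.9 CPM in the KO libraries, with WT replicate 4 the lowest WT library (log2 difference -1.62 ± 0.29, edgeR adjusted p = 3.91e-05).

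In the respiratory chain list the edgeR test called 0 of 32 nuclear genes, 0 had an unadjusted p below 0.05 and DESeq2 called 0 (median -0.06). Of 28 sterol genes, 1 fell, the cholesterol exporter Abcg1 with 0 counts in KO (median -0.34), and 2 fell without KO replicate 3, without WT replicates 4 or 5 or with a replicate block. Interferon and antigen presentation genes gave 7 lower and 3 higher calls among 28 (median -0.64), where 10.3% of all genes fell and 7.64% rose. Xaf1, an interferon-induced gene, stood at 15.3, 18.5, 10.9 and 23.0 CPM in the WT libraries and 1.10, 2.19 and 2.33 CPM in the KO libraries (log2 difference -3.18 ± 0.40, edgeR adjusted p = 7.81e-06). Bst2, tetherin, was at 11.5 ± 6.58 CPM in WT and 2.63 ± 1.17 CPM in KO (log2 difference -2.13 ± 0.61, edgeR adjusted p = 0.000626). Its groups overlapped, with WT replicate 1 at 3.85 CPM and KO replicate 3 at 3.86 CPM. WT replicate 4 was the highest at 19.6 CPM, and without it the difference was -1.74 (adjusted p = 0.00436). Tap2, a peptide transporter, rose and was at 1.87 ± 1.07 CPM in WT and 7.80 ± 1.69 CPM in KO (log2 difference 2.05 ± 0.49, edgeR adjusted p = 0.00531), as did its partner Tap1 (log2 difference 2.43, edgeR adjusted p = 0.0246; not called without KO replicates 3 or 5 or WT replicates 3 or 5 at adjusted p 0.0514 to 0.0717) and the immunoproteasome subunit Psmb8 (edgeR adjusted p = 0.000379). B2m, the light chain of class I antigens, was at the edge of the threshold (log2 difference -0.66 ± 0.17, edgeR adjusted p = 0.0498) and was not called without any 1 of the libraries other than KO replicate 1 (adjusted p 0.0534 to 0.221) or with a replicate block (adjusted p = 0.0571). The 7 lower calls became 2 to 4 without KO replicates 1, 3 or 5 or WT replicates 3 or 4, and 3 with a replicate block.

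Adhesion, SRF and YAP genes, the part of the cytoskeleton that reads tension, gave 8 lower and 3 higher calls among 43 (median -0.19). Over all genes tested, 10.3% fell and 7.64% rose. The lower count became 5 without KO replicates 1, 3 or 5 or WT replicate 1, and the higher count 1 without KO replicates 3 or 5 or WT replicate 4. Tead4, a DNA-binding partner of YAP that is active in muscle, stood at 67.6, 48.4, 85.0 and 78.3 CPM in the WT libraries and 10.4, 4.08 and 4.42 CPM in the KO libraries. The KO libraries were far below WT (log2 difference -3.47 ± 0.46, edgeR adjusted p = 9.97e-09). Vgll3, a cofactor of TEAD proteins, stood at 130.1, 79.2, 143 and 134 CPM in the WT libraries and 24.9, 29.9 and 29.3 CPM in the KO libraries (log2 difference -2.12 ± 0.21, edgeR adjusted p = 0.0003). Itga6, a laminin receptor subunit, was at 227 ± 62.5 CPM in WT and 55.4 ± 10.2 CPM in KO (log2 difference -2.03 ± 0.25, edgeR adjusted p = 0.000454). Pxn, the focal adhesion adaptor paxillin, was at 99.2 ± 23.8 CPM in WT and 42.5 ± 6.58 CPM in KO (log2 difference -1.22 ± 0.21, edgeR adjusted p = 0.00107). The genes that rose were the integrin subunits Itga3 (log2 difference 1.04, edgeR adjusted p = 0.0224; not called without KO replicates 3 or 5 or WT replicates 4 or 5 at adjusted p 0.0555 to 0.0896) and Itgb5 (log2 difference 1.49, edgeR adjusted p = 0.0013) and the myosin light chain Myl9 (log2 difference 1.46, edgeR adjusted p = 0.0327; not called without KO replicates 3 or 5 or WT replicates 1, 4 or 5 or with a replicate block at adjusted p 0.0536 to 0.235).

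Intermediate filament and caveola genes gave 5 lower and 1 higher calls among 22 (median -0.22), 3 lower without KO replicate 5. Of all genes, 10.3% fell and 7.64% rose. Synm, synemin, the member that rose, stood at 1.20, 0.305, 1.05 and 0.65 CPM in the WT libraries and 16.8, 19.7 and 28.9 CPM in the KO libraries (log2 difference 4.76 ± 0.44, edgeR adjusted p = 2.43e-06). Nes, nestin of precursor cells and young myotubes, stood at 2091, 1358, 1138 and 1679.5 CPM in the WT libraries and 602, 494 and 367 CPM in the KO libraries (log2 difference -1.68 ± 0.28, edgeR adjusted p = 4.28e-05). Bin1, which shapes the membrane tubules of muscle, was at 934 ± 269 CPM in WT and 350.3 ± 33.6 CPM in KO (log2 difference -1.42 ± 0.26, edgeR adjusted p = 0.000368). The membrane repair genes Dysf (log2 difference -1.25, edgeR adjusted p = 0.0153; not called without KO replicates 1 or 5 or with a replicate block at adjusted p 0.0572 to 0.0707) and Trim72 (log2 difference -2.04, edgeR adjusted p = 0.029; not called without KO replicates 3 or 5 or WT replicates 1 or 5 at adjusted p 0.0642 to 0.133) fell with them. Des, desmin, the muscle intermediate filament, was 1593 to 4337 CPM in WT and 1911 to 3292 CPM in KO and did not pass (log2 difference -0.22, edgeR adjusted p = 0.759).

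Potassium and mechanosensitive channels gave 4 higher and 3 lower calls among 16 (median -0.60), with 1 lower without KO replicate 3. The shares over all genes were 7.64% higher and 10.3% lower. Kcnj15, an inward rectifier, stood at 0.0856, 0.381, 0.667 and 0.217 CPM in the WT libraries and 93.5, 92.6 and 111 CPM in the KO libraries. It was below 1 CPM in every WT library and at 92.6 CPM or more in every KO library (log2 difference 8.17 ± 0.44, edgeR adjusted p = 5.17e-12). Piezo2, a stretch-gated channel, stood at 10.4, 8.46, 21.4 and 6.83 CPM in the WT libraries and 61.7, 62.3 and 72.3 CPM in the KO libraries (log2 difference 2.47 ± 0.36, edgeR adjusted p = 0.00024). Kcnn1 and Kcnn3, calcium-activated channels of the same family, differed in direction. Kcnn1 was at 3.97 ± 1.14 CPM in WT and 10.5 ± 3.32 CPM in KO (log2 difference 1.41 ± 0.32, edgeR adjusted p = 0.00229). Kcnn3 was at 7.74 ± 5.69 CPM in WT and 0.0691 ± 0.0628 CPM in KO (edgeR adjusted p = 0.000154). Kcnj2, an inward rectifier of muscle, rose (log2 difference 1.29, edgeR adjusted p = 0.0293; not called without KO replicates 1 or 5 or WT replicates 3, 4 or 5 or with a replicate block at adjusted p 0.0542 to 0.174), while Kcnj12 (log2 difference -2.74, edgeR adjusted p = 0.0149; not called without KO replicates 1 or 3 at adjusted p 0.0572 to 0.074) and the cation channel Trpc1 (log2 difference -2.04, edgeR adjusted p = 0.0112; not called without KO replicate 3 at adjusted p = 0.0505) fell.

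The label of the cells was checked against markers. Muscle precursor genes were present in all 7 libraries: Cdh15, M-cadherin, was 769 to 1149 CPM in WT and 427 to 689 CPM in KO. It was lower in every KO library but did not pass (log2 difference -0.69, edgeR adjusted p = 0.0621). Without WT replicate 4 or 5, with a replicate block or with DESeq2 it passed (adjusted p 0.0362 to 0.0496). Of the other muscle markers, Myod1 rose, Des did not pass and the rest fell, Myf5 and Myog among them. Markers of other cell types were summed by list. Fibroblast markers summed to 130.4 to 696 CPM in WT and 170.4 to 474 CPM in KO, and 2 of 8 tested rose, Pdgfra and Mfap5. The list did not rise as a group: its median was -0.25 and 4 of the 8 lay below 0. Mfap5, a microfibril protein, stood at 3.81, 1.94, 0.858 and 1.41 CPM in the WT libraries and 17.5, 65.6 and 58.2 CPM in the KO libraries (log2 difference 4.54 ± 0.74, edgeR adjusted p = 7.26e-06). Adipocyte markers summed to 88.5 to 311 CPM in WT and 677 to 1633 CPM in KO, and 2 of 4 tested rose, Lpl and Cebpa. Lpl, also in the fuel use list, made up most of these sums, and without it they were 26.9 to 39.7 CPM in WT and 78.1 to 105 CPM in KO.

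Cebpa, a factor of fat cell differentiation, stood at 7.53, 9.30, 9.91 and 4.34 CPM in the WT libraries and 67.2, 83.4 and 77.1 CPM in the KO libraries (log2 difference 3.29 ± 0.28, edgeR adjusted p = 1.42e-06). Of the 9 adipocyte markers Plin1, Lep, Cidec and Cfd, which mark mature fat cells, had 0 counts in all 7 libraries. Bone and cartilage markers summed to 75.7 to 103 CPM in WT and 105 to 155 CPM in KO, 1 of 5 rose, Dlx5 at a KO mean below 1 CPM, and Bglap, Ibsp and Col2a1 were at 0 in all 7. In the smooth muscle list (255 to 284 CPM in WT, 242 to 384 CPM in KO) 1 of 7 fell, Cspg4, at 40.4 ± 9.25 CPM in WT and 11.8 ± 2.59 CPM in KO (log2 difference -1.77 ± 0.26, edgeR adjusted p = 0.000707).

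Neural and glial markers summed to 99.8 to 215 CPM in WT and 38.0 to 53.2 CPM in KO, with 2 of 7 lower and 1 higher, Sox10 and Rbfox3 being at 0 in all libraries. The gene that rose was S100b, at a KO mean below 1 CPM (edgeR adjusted p = 0.0402), and it was not called without KO replicates 3 or 5 or WT replicates 3, 4 or 5 or with a replicate block at adjusted p 0.0599 to 0.316. Gap43, a growth cone protein, had 1806 counts in WT and 0 in KO, at least 435-fold lower with the floor of 3 counts over the group. Tubb3, a tubulin isoform, was at 77.4 ± 40.4 CPM in WT and 11.7 ± 6.52 CPM in KO (log2 difference -2.72 ± 0.72, edgeR adjusted p = 0.0052). Blood and endothelial markers stayed at 1.27 to 5.31 CPM in sum, and 1 of 5 fell, Tek, at a WT mean below 1 CPM and not called without KO replicates 1 or 5 at adjusted p 0.0587 to 0.0606. The part of other cell types in the matrix and growth factor results was not tested.

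Of the 20 largest differences, 11 were members of the lists above. They were taken as the 10 in each direction among genes with a mean of at least 50 CPM in 1 line and no overlap, of which 363 rose and 452 fell. On the higher side they were Rhox5, Kcnj15, Cntn3, Postn, Sfrp2, Aspn, Hpgd, Id3, Col6a2 and Col6a1. Rhox5, an X-linked homeobox gene best known from testis, stood at 0.0856, 0.0762, 0.0953 and 0.217 CPM in the WT libraries and 79.2, 160.2 and 148 CPM in the KO libraries. It was at trace level in all WT libraries (log2 difference 10.07 ± 0.37, edgeR adjusted p = 1.29e-12). Cntn3, a cell adhesion protein of the contactin family, stood at 0.599, 0.648, 1.14 and 0.542 CPM in the WT libraries and 19.1, 150.1 and 235 CPM in the KO libraries, with KO replicate 1 well below the other KO libraries (log2 difference 7.51 ± 1.13, edgeR adjusted p = 1.23e-07). Hpgd, the enzyme that breaks down prostaglandins, stood at 2.83, 0.533, 0.477 and 4.39 CPM in the WT libraries and 103, 67.4 and 121 CPM in the KO libraries (log2 difference 5.58 ± 0.79, edgeR adjusted p = 2.65e-08).

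On the lower side they were Mamdc2, Bgn, Actc1, Cd55, Prrg4, Ccnd2, Npnt, Msln, Erbb3 and Sox11. Mamdc2, a secreted proteoglycan, stood at 81.6, 68.8, 60.8 and 168 CPM in the WT libraries and 0.423, 0 and 0.123 CPM in the KO libraries (log2 difference -8.92 ± 0.74, edgeR adjusted p = 1.07e-08). Cd55, a complement regulator at the cell surface, stood at 77.9, 71.4, 40.5 and 108 CPM in the WT libraries and 2.46, 0.175 and 0.245 CPM in the KO libraries, with KO replicate 1 the highest of the KO libraries (log2 difference -6.21 ± 1.05, edgeR adjusted p = 1.83e-05). Prrg4, a membrane protein with a Gla domain, was at 115 ± 30.8 CPM in WT and 2.74 ± 0.967 CPM in KO (log2 difference -5.38 ± 0.37, edgeR adjusted p = 2.05e-06). Msln, mesothelin, stood at 546, 437, 182 and 266 CPM in the WT libraries and 16.4, 11.6 and 2.698 CPM in the KO libraries (log2 difference -5.12 ± 0.86, edgeR adjusted p = 1.89e-08).

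Erbb3, a neuregulin receptor, stood at 131, 64.0, 115 and 142 CPM in the WT libraries and 4.49, 4.30 and 2.58 CPM in the KO libraries (log2 difference -4.89 ± 0.36, edgeR adjusted p = 2.71e-08). Sox11, a transcription factor of progenitor cells, stood at 68.5, 51.8, 67.8 and 77.9 CPM in the WT libraries and 2.71, 2.98 and 2.698 CPM in the KO libraries, with narrow groups (log2 difference -4.57 ± 0.13, edgeR adjusted p = 1.27e-06).

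A separate test asked whether the difference between the lines at day 2 was larger or smaller than at day 1 or day 4. Against day 1, the edgeR test called 1 of 13780 genes (0.00726%), 472 had an unadjusted p below 0.05 and DESeq2 called 1. Against day 4 the edgeR test called 0 (0%), with a lowest adjusted p of 0.0676, 910 genes had an unadjusted p below 0.05 and DESeq2 called 61. These tests share the day 2 libraries with the comparison above. The gene called against day 1 was Fam19a5, a secreted chemokine-like protein. It stood at 4.88, 4.08, 2.38 and 2.93 CPM in the WT libraries and 13.9, 29.9 and 31.0 CPM in the KO libraries at day 2 (log2 difference 2.80 ± 0.44, edgeR adjusted p = 1.69e-07) and at 11.0 ± 1.80 CPM in WT and 11.4 ± 2.09 CPM in KO at day 1. The change of its difference from day 1 to day 2 was 2.75 (edgeR adjusted p = 0.00553), and the gene was not called without KO replicate 5 of day 2. At day 4 Fam19a5 was at 3.90 ± 0.907 CPM in WT and 62.2 ± 27.4 CPM in KO. At day 6 it was at 3.63 ± 0.784 CPM in WT and 35.0 ± 12.8 CPM in KO, so the higher KO mean was not particular to day 2.

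The levels of neighbouring days were set side by side. Over days 1, 2 and 4, Myog went through 179 ± 129.9, 575 ± 103 and 1209.5 ± 274 CPM in WT (mean ± SD), and through 29.0 ± 23.0, 118 ± 10.1 and 418 ± 150.3 CPM in KO. The KO level of day 2 was below the WT mean of day 1. Mymk went through 145 ± 115, 685 ± 139 and 1704 ± 416 CPM in WT and 15.8 ± 7.91, 79.6 ± 54.9 and 397 ± 107 CPM in KO over the same days. Actc1 went through 129 ± 127, 688 ± 216 and 1956 ± 742 CPM in WT and 2.26 ± 1.35, 7.61 ± 2.80 and 42.1 ± 18.1 CPM in KO. The means of both genes were higher on each later day in both lines, and lower in KO than in WT on each of the 3 days.

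Id3 ran the other way, with 33.8 ± 14.5, 11.1 ± 5.53 and 2.60 ± 1.5 CPM in WT and 365 ± 212, 364 ± 125 and 444 ± 134 CPM in KO. Hspa5 was at 775 ± 142 CPM in WT at day 1 and 1128 ± 245 at day 4, so that the 11863 CPM of WT replicate 4 at day 2 lay far above both days. Myod1 in KO was 234 ± 39.9, 293 ± 39.0 and 262 ± 52.5 CPM, and in WT 127 ± 14.9, 145 ± 49.4 and 127 ± 15.5 CPM, the KO mean being above the WT mean on each of the 3 days.

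**Figure D4:**
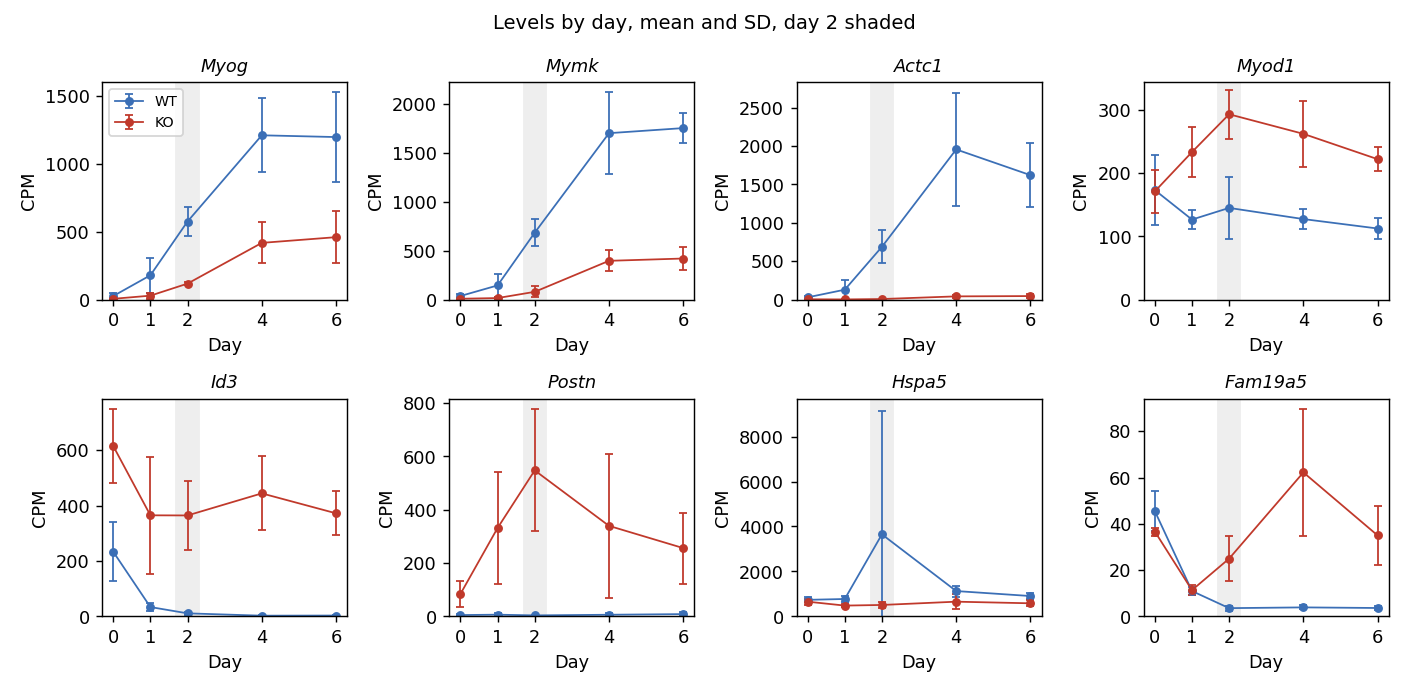
Mean and SD of TMM-normalised CPM by day of differentiation (0, 1, 2, 4 and 6) for 8 genes, WT in blue and KO in red, with day 2 shaded and each axis from 0. Myog, Mymk and Actc1 stand lower in KO on every day, Id3 and Postn stay higher in KO, and the WT Hspa5 mean at day 2 carries an SD (5476 CPM) larger than the mean, set by replicate 4.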

How the data were processed

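The values used are raw counts, 1 number for each gene and library, as deposited by the authors. Per the submitters' processing notes, reads were checked with FastQC 0.11.9, aligned with STAR 2.7.9 and counted with featureCounts 2.0.3, and the notes name GRCm38, GRCh38 and DESeq2. The strand setting and annotation are not given in the sources used here, so overlapping antisense genes cannot be told apart. At day 2, 62.0% of counts above 0 were even, so mates may have been counted singly. The table has 1 column that matched no sample and was not used.

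All 39 libraries entered 1 fit of 10 group means in edgeR 4.0.16 (R 4.3.3), with TMM, filterByExpr (minimum count 10) and robust quasi-likelihood, which kept 13780 of 29980 genes with 29 residual degrees of freedom. The SE is that of the difference in mean log2 CPM (prior count 2), not of edgeR's fitted difference. On simulated counts the test recovered 8.96%, 38.8% and 72.7% of 1.5-, 2- and 4-fold changes in KO at day 2. It made 9 false calls. Only 66 or 67 genes were changed at each size, far fewer than were called in the data. Each simulated gene had 1 mean level over all 39 libraries, not its day 2 level, so recovery in the data can differ. Same-numbered KO and WT libraries deviated together (r = 0.133, 0.394 and 0.164 for numbers 1, 3 and 5), so a fit with the number as a block was an alternative. The others were DESeq2 1.42.0, its size factors, a test against 1.5-fold, no filter, halved counts, day 2 libraries alone and leaving out each library.

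All identifiers matched GENCODE mouse release 21. Members and gene lists were chosen with earlier results of these data known. Named genes were a preset set, the 10 largest differences each way (50 CPM, no overlap), up to 4 called members a list by smallest p (5 CPM), and genes called between days (20 CPM), with the other members of calls of 5 or fewer named after their values were seen. Values of a few listed genes are left out here.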

Additional observations from a re-analysis of the deposited data

Results flagged for a closer look

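In 11 of the 126 genes named by the rule, 1 WT library of day 2 lay apart from the other 3. The criterion was that for a single distant sample, which chance meets in about 1 of 20 groups. WT replicate 4 was the distant library in 8 of them. It was the highest for Hspa5 (11860 CPM), Herpud1 (878.5 CPM), Pdia4 (2056 CPM) and Calr (6554 CPM), all ER chaperone or unfolded protein response genes. It was the lowest for Ccnd1 (50.47 CPM), Plau (82.41 CPM), Ccnd3 (192.9 CPM) and Pfkp (167.4 CPM). Herpud1, Pdia4 and Calr were picked by smallest p in a fit that holds WT replicate 4. Hspa5 was preset with earlier results known. These ER genes are therefore no separate check of that library. WT replicate 3 was the lowest for Myom2 (291 CPM) and Vgll3 (79.19 CPM), and WT replicate 5 the highest for Myoz2 (47.69 CPM). For Fam19a5 the KO minus WT log2 difference at day 2 minus that at day 1 was 2.75 in the edgeR test of the change itself (adjusted p = 0.00553).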

How the results depend on the processing

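No named difference changed sign under any alternative run. Counts can only move, and several did. In the growth factor list, 4 higher and 7 lower calls became 4 higher and 3 lower with the replicate block. The test against 1.5-fold called 1299 genes, 505 higher and 794 lower, in place of 2467, 1053 and 1414. Leaving out 1 library gave 1508 to 2257 genes called, 637 to 949 higher and 871 to 1323 lower, the lowest each time without KO replicate 5. With the replicate block, which pairs 3 KO with 3 WT libraries, 2181 genes were called, 910 higher and 1271 lower. Among the 126 genes named by the rule the block changed the call of 8, 7 of them given with the results. Among 47 members named later it changed the call of 13, and leaving out 1 library kept 29 to 42 on their side of the threshold. For the change against day 1, leaving out 1 library gave 0 to 1 gene called, 0 without KO replicate 5. For the change against day 4, DESeq2 called 61 genes, and leaving out 1 library gave 0 to 7. Of 126 named genes, 114 kept their side of the threshold in the test against 1.5-fold, 123 with DESeq2, 126 with DESeq2 size factors or halved counts, 123 without the filter, 117 in the day 2 libraries alone, 118 with the block and 115 to 122 without 1 library.

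Depth in fragments is uncertain. In simulated counts with 3 and 4 libraries 1.5-fold changes were mostly missed, but those counts held fewer changed genes than the data. The cause of the lower counts without KO replicate 5 was not tested.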
